A study of Homo sapiens with 22 samples.

Results

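The subject here is the CXCL12 locus, taken as the 200 kb window chr10:44780000-44980000 in GRCh37 coordinates, and the peaks of FLAG-tagged estrogen receptor alpha (ESR1) that overlap it. The window is a stretch of coordinates, put forward with earlier results of these data known. It held 14 of the 356467 peaks in 20 chromatin immunoprecipitation sequencing (ChIP-seq) lists, and these merged into 7 of 93612 bound regions. All 14 peaks came from D538G clones 2 and 3. No peak lay in the window in any of the 8 wild-type lists or the 4 lists of D538G clone 1.

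CXCL12, also called stromal cell-derived factor, is a secreted chemokine that draws cells toward it through the receptor CXCR4, while the atypical receptor ACKR3 binds it and removes it. It guides leukocyte and progenitor cell traffic, and in the uterus it is made by stromal and epithelial cells. It is known as an estrogen-responsive gene in ESR1-positive breast cancer cells. ESR1 is a ligand-activated transcription factor that binds estrogen response elements, often far from the genes it regulates, and D538G is a substitution in its ligand-binding domain found in hormone-treated cancers.

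The cells were Ishikawa, an established endometrial adenocarcinoma line, as clonal lines: 2 with wild-type ESR1 and 3 with D538G ESR1, all carrying the FLAG tag by which the receptor was precipitated. All were deprived of hormone for at least 5 days and then given 10 nM estradiol (E2) or 0.1% DMSO, the solvent, for 1 h. Each clone had 2 replicates per treatment, which gave 4 wild-type DMSO, 4 wild-type E2, 6 D538G DMSO and 6 D538G E2 libraries. A clone is one derivative line, so libraries of a clone are not independent of each other, and a difference between clones of one genotype cannot be assigned to the receptor alone. The labels do not say whether replicates were separate cultures, so p-values measure only the spread between these libraries.

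List lengths ran from 45 to 35344 peaks in wild type and from 1619 to 54903 in D538G, and read depth is unknown. The authors' peak names in both lists of D538G clone 2 replicate 1 hold the letters Ctl, a mark that the other 9 E2 lists lack. The list labelled D538G clone 2 replicate 1 E2 may therefore not hold an E2 library, and the comparisons of treatments and genotypes are also given without this pair. The counts by clone do not use the treatment label.

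The regulatory sequence at hand is the CXCL12 promoter, from 250 bases before to 50 bases after the start site, in RefSeq on GRCh38.p14 (chr10:44385048-44385347, minus strand), a different build from the peak lists. It is shown because it is the promoter of the gene in question, and no peak was placed on it. Capitals mark GGTCA, an arm of the estrogen response element, and the GC box GGGCGG, read on either strand.

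CXCL12 promoter: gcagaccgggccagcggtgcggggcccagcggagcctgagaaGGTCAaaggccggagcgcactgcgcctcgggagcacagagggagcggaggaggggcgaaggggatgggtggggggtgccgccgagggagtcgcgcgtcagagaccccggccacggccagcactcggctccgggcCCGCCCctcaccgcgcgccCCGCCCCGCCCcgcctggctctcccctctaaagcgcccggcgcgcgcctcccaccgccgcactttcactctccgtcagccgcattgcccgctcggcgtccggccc

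The promoter is 77% G and C. GGTCA occurs 1 time, on the gene's strand, and 37.4% of 35116 RefSeq promoters of the same length hold it on either strand. The GC box occurs 3 times, all on the other strand, with 1 base shared between 2 of them, against 45% of promoters with any. The full response element, GGTCA and TGACC with 3 unspecified bases between, is not among these letters, as in all but 0.057% of promoters. Each match is a description of the letters and not a bound site. Sequence under the peaks themselves was not used here, because no genome of the lists' build was at hand. For the same reason positions are given from the centre of the window, and whether a peak lies within the gene was not determined. In the RefSeq gene table the nearest protein-coding genes are ZNF32, a zinc finger gene, on the lower-coordinate side and TMEM72, a transmembrane protein gene, on the higher side.

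Binding in the window was dominated by a single site. It spanned chr10:44858063-44859049 (GRCh37, 987 bp), 21.5 kb below the centre of the window, and had peaks in 6 libraries, 3 with E2 and 3 with DMSO. These were D538G clone 2 replicate 1 with E2 and DMSO, clone 2 replicate 2 with DMSO, clone 3 replicate 1 with E2 and DMSO, and clone 3 replicate 2 with E2. The 6 summits, the positions of highest signal within each peak, fell within 61 bp of each other, from 44858467 to 44858528. So the libraries marked the same place, although their peaks were between 219 and 920 bp wide.

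The strength of the site varied between the lists that held it. In clone 3 with E2 the authors' signal value was 74.9 in replicate 1, rank 494 of 19832 peaks, and 83.1 in replicate 2, rank 809 of 49223. Stronger peaks were thus few there, since 97.5% and 98.4% of the respective lists were weaker. The clone 3 replicate 1 DMSO list gave it a signal of 34.1 and rank 993 of 9850, with 89.8% of the list weaker.

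In clone 2 the site stood lower than in the clone 3 E2 lists. Only the clone 2 replicate 1 DMSO list placed it below its standing in clone 3 replicate 1 DMSO (89.8% weaker). The replicate 1 list labelled E2 gave a signal of 40.7 and rank 1436 of 21869, with 93.4% of the list weaker. The replicate 1 DMSO list gave 7.33 and rank 3407 of 4032, with 15.1% weaker, which put it near the bottom of that list. In the replicate 2 DMSO list the signal was 14.5 and the rank 4659 of 54903, with 91.4% weaker. The −log10 p that the authors gave to the 6 peaks ran from 18.4 in the clone 2 replicate 1 DMSO list to 348.9 in the clone 3 replicate 1 E2 list. Signal and rank describe a peak within its own list, and lists of different length do not allow a change between treatments to be read from them.

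**Figure D1:**
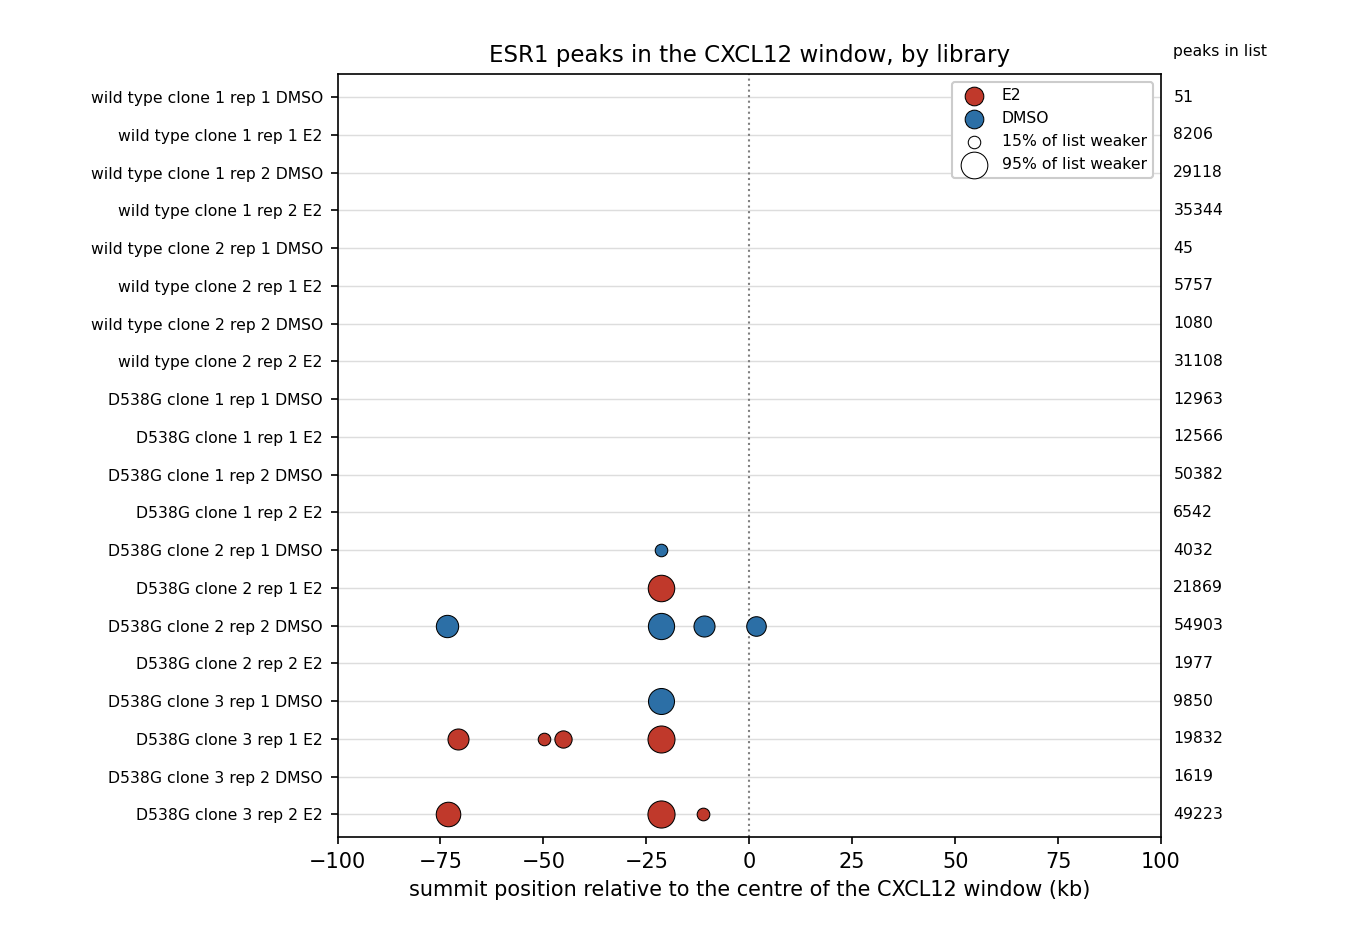
Summits of the 14 peaks in the CXCL12 window (x axis, kb from the centre of the window) in each of the 20 libraries (rows), with the number of peaks in each list at the right. Colour gives the treatment and the area of a point grows with the percent of that list's peaks that were weaker. The column of points at 21.5 kb below the centre is the main site, and the rows of wild type and of D538G clone 1 are empty.

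The other 6 sites of the window had 8 peaks in all. A site 73.3 kb below the centre (chr10:44806189-44806837, 649 bp) had peaks in the clone 2 replicate 2 DMSO list, with a signal of 10 and 64.2% of the list weaker, and in the clone 3 replicate 2 E2 list, with 14.2 and 79.2%. A site 11 kb below the centre (chr10:44868813-44869260, 448 bp) was in the same libraries, at signals of 9.52 and 8.27 with 56.3% and 15.6% weaker. Its summits were 239 bp apart, wider than at the main site. Those lists were 54903 and 49223 peaks long, the longest of D538G clones 2 and 3.

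The remaining 4 sites each had 1 peak, and the one 49.8 kb below the centre is named here after its values were seen. The clone 3 replicate 1 E2 list held 3 of them. They lay 70.6 kb below the centre (chr10:44809189-44809672, signal 16.3), 49.8 kb below it (chr10:44830086-44830355, signal 8.6) and 45.1 kb below it (chr10:44834692-44834993, signal 11.4). The site nearest to the centre, 1.8 kb above it (chr10:44881597-44881864, 268 bp), had a peak in the clone 2 replicate 2 DMSO list only, with a signal of 9.09 and 47.6% of the list weaker. It was the only site above the centre. Across all regions of the series 43.8% had a peak in a single library, against these 4 of 7 in the window.

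By library, the number of peaks in the window was 0 in all 4 wild-type DMSO and all 4 wild-type E2 lists. Among D538G E2 lists it was 0 in both replicates of clone 1, 1 and 0 in replicates 1 and 2 of clone 2, and 4 and 3 in those of clone 3. Among D538G DMSO lists it was 0 in both replicates of clone 1, 1 and 4 in those of clone 2, and 1 and 0 in those of clone 3. The D538G groups overlapped each other fully and each also overlapped the zeros of wild type.

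Whether the mutation changed binding at the locus was asked separately without and with estrogen. D538G DMSO lists had 1 ± 1.55 peaks in the window (SD, n = 6) and D538G E2 lists 1.33 ± 1.75 (SD, n = 6), against 0 in every wild-type list. For neighbouring groups in this order, D538G E2, D538G DMSO and wild type, the counts overlapped and no difference was called. The exact two-sided permutation p was 0.4 for D538G against wild type under DMSO and 0.3 under E2, and 1 for each after Benjamini-Hochberg adjustment over 5 tests. The smallest p that 6 libraries against 4 allow is 0.00476, but these tied counts could not reach it. With every wild-type count at 0, the observed difference was already the largest D538G excess that the counts allow. A smaller p in that direction was out of reach, so these tests cannot decide the question. They also take libraries of a clone as independent. With clone means as units the exact permutation p was 0.7 in each treatment, where 3 clones against 2 allow no less than 0.1.

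Mean effects of E2 were within the spread between libraries. In D538G the E2 and DMSO means differed by 0.333 peaks (exact permutation p = 0.935), and in wild type by 0. That p does not use the clone, and the clones went different ways. Clone 3 had 4 and 3 peaks with E2 and 1 and 0 with DMSO, clone 2 had 1 and 0 against 1 and 4, and clone 1 had none. With D538G clone means as units the exact permutation p was 0.9, where 0.1 was the smallest possible. Between genotypes the E2 effect differed by 0.333 peaks, with an exact permutation p of 1 over 6 and 4 pairs matched by clone and replicate number, although the labels do not tie that number to a culture or day. Without the clone 2 replicate 1 pair the E2 and DMSO means of D538G differed by 0.4 peaks and the E2 effects of the genotypes by 0.4, with an exact permutation p of 1 for each. Without that pair the D538G-minus-wild-type differences were 1 under DMSO and 1.4 under E2, with an exact permutation p of 0.444 for each. Within replicate number 1 these differences were 0.667 (exact permutation p = 0.4) and 1.67 (exact permutation p = 0.7), and within replicate number 2 they were 1.33 and 1, each with an exact permutation p of 1.

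Presence of a peak at the main site was then compared. Under DMSO 3 of 6 D538G libraries had it and 0 of 4 wild-type libraries, and the same counts held under E2. As shares of libraries these are 50% (exact Clopper-Pearson 95% interval 11.8 to 88.2%) and 0% (0 to 60.2%), intervals that treat libraries as independent and that overlap. Fisher's exact p, two-sided, was 0.2 in each treatment, with a Benjamini-Hochberg adjusted p of 1 over all regions tested in the genome. Before adjustment 3.57% of those regions passed 0.05 for the genotypes under DMSO and 1.21% under E2, and none of the window's regions was among them. The main site was the only window region tested, and its counts left no p under 0.05 for a D538G excess. Without the clone 2 replicate 1 pair the site was in 2 of 5 D538G libraries (40%) and 0 of 4 wild-type libraries in each treatment, and Fisher's exact p was 0.444 in each. Adjusted calls were 0% of regions in every comparison, so no region of the genome passed by that measure. The smallest Fisher's exact p possible for 6 libraries against 4 is 0.00476, but the site's counts could not reach it. With no wild-type library holding the site, the observed counts were already the largest D538G excess for that number of libraries. A smaller p in that direction was out of reach, also without the pair, so these tests cannot decide the question. After adjustment over all regions, a fully separated region could pass only if very many others were separated too. The adjusted p therefore says little about the site.

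Under E2 against DMSO within D538G the site was present in 3 of 6 libraries of each treatment (Fisher's exact p = 1, adjusted p = 1), against a background of 0.02% of regions with an unadjusted p under 0.05. This is the comparison that the doubted label bears on most directly, and without the pair the site was in 2 of 5 libraries of each treatment (Fisher's exact p = 1). The sites 73.3 kb and 11 kb below the centre were present in 1 of 6 libraries of each treatment. In wild type no region of the window could be tested, since there was no peak, and 9.34% of regions genome-wide had an unadjusted p under 0.05 for E2 against DMSO.

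Pooling the treatments, a comparison chosen after the values were seen, gave 6 of 12 D538G and 0 of 8 wild-type libraries with the main site. The shares were 50% (exact 95% interval 21.1 to 78.9%) and 0% (0 to 36.9%). Fisher's exact p was 0.0419 and the adjusted p was 1, against 2.33% of all 52609 regions tested with an unadjusted p under 0.05. Without the clone 2 replicate 1 pair the counts were 4 of 10 and 0 of 8 (Fisher's exact p = 0.0915). In replicate number 1 they were 4 of 6 and 0 of 4 (exact p = 0.0762), and in replicate number 2 they were 2 of 6 and 0 of 4 (exact p = 0.467). For a D538G excess, each of these smaller counts already gave the smallest p that its number of libraries with the site allows. The pooled count takes the 4 libraries of a clone as independent. With clones as units, 2 of 3 D538G and 0 of 2 wild-type clones had the site (Fisher's exact p = 0.4, smallest possible 0.1).

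Within D538G the site differed by clone. Clone 1 had it in 0 of 4 libraries, clone 2 in 3 of 4 and clone 3 in 3 of 4. The 4 lists of each clone summed to 82453, 82781 and 80524 peaks, of which the longest list held 50382, 54903 and 49223. In clones 2 and 3 the lists with the site held 4032 peaks or more, and those without it were the shortest, the clone 2 replicate 2 E2 list of 1977 peaks and the clone 3 replicate 2 DMSO list of 1619. Among the 12 lists of wild type and D538G clone 1, 9 were longer than 4032 peaks, up to 50382, and 0 had the site. The part of read depth in this was not tested, since depth is unknown.

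**Figure D2:**
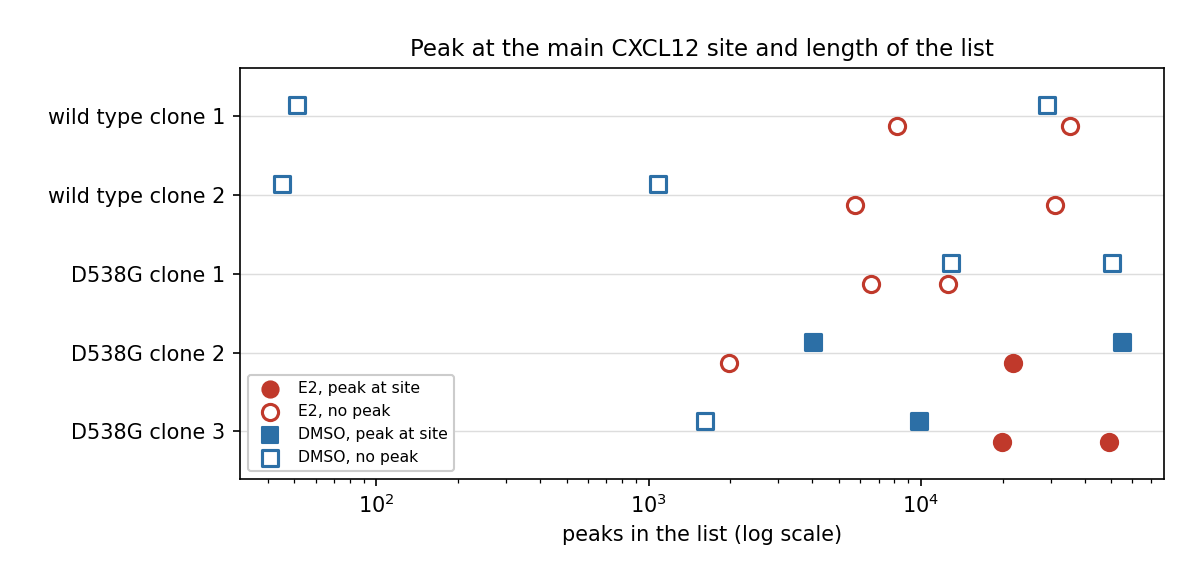
Number of peaks in each list (x axis, log scale) by clone (rows), with filled marks for lists with a peak at the main CXCL12 site and open marks for lists without. Circles are E2 and squares DMSO lists. All lists of 4032 peaks or more are filled in D538G clones 2 and 3, and all lists are open in the other 3 clones.

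Shortening the lists left the main site as follows. When only the 5000 strongest peaks of each list were used, the main site was the only region left in the window, and its 6 peaks stayed. The clone 2 replicate 1 DMSO list has only 4032 peaks, so this cut removed none of them and its peak could not be lost. With the 1000 strongest, 3 peaks stayed, in 3 of the 4 clone 3 libraries and in no other. With only peaks of −log10 p of at least 20, 10 of the window's 14 peaks were left in 5 regions, and 5 of those peaks were at the main site.

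Peaks of the other clones were far away. The nearest wild-type peak lay 501.2 kb from the main site, in the clone 1 replicate 2 DMSO list, and both replicate 2 E2 lists of wild type had their nearest at 501.3 kb. For D538G clone 1 the nearest was 310.0 kb away, in the replicate 2 DMSO list of 50382 peaks. Outside the window but within 500 kb of its centre, the wild-type lists had 0 or 1 peak each, and the lists of each D538G clone had 0 to 4. D538G clone 1 thus had peaks in the surrounding sequence, 6 in its 4 lists together, as did clone 2 with 6 and clone 3 with 9. In each D538G clone 4 of these were in its longest list. These lists were replicate 2 DMSO for clones 1 and 2 and replicate 2 E2 for clone 3.

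Regions bound in many lists of D538G clones 2 and 3 seldom lacked wild-type or clone 1 peaks. The counts were made after the values were seen. Regions with peaks in 6 or more of the 8 lists of D538G clones 2 and 3 numbered 2679. Of these 50 (1.87%) had no peak in any wild-type list and 3 (0.112%) had none in D538G clone 1. The main CXCL12 site was the only one of the 2679 with a peak in neither (0.0373%). The clones and the cut of 6 lists were taken from the site itself, so this count does not measure its rarity. Without the clone 2 replicate 1 pair, 5622 regions had peaks in 4 or more of the 6 lists left, and the main site was then 1 of 2 (0.0356%) with none in the other 12 lists. In all, 3069 regions were bound in exactly 6 D538G lists, the main site included, and 191 of them (6.22%) had no wild-type peak, so that property by itself was shared by many regions.

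For comparison, the same count was made for each pair of D538G clones. Of the 93612 bound regions, those with peaks in both clones of a pair and in none of the other 12 lists were counted. They numbered 6781 for clones 2 and 3, 3866 for clones 1 and 3 and 1089 for clones 1 and 2. Most of the first were in 2 lists (6704), and 3 were in 5 or more. Clones 1 and 3 had 121 such regions in 5 or more lists and 6 in 7 lists. At exactly 6 lists, clones 1 and 3 had 26 among 1658 regions in 6 of the pair's lists, whatever the other lists held. Clones 1 and 2 had 2 among 1422, and clones 2 and 3 had 1 among 1345. Regions restricted to a pair of clones therefore occurred for every pair, and the CXCL12 site was the one in the largest number of lists, 6, for clones 2 and 3.

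**Figure D3:**
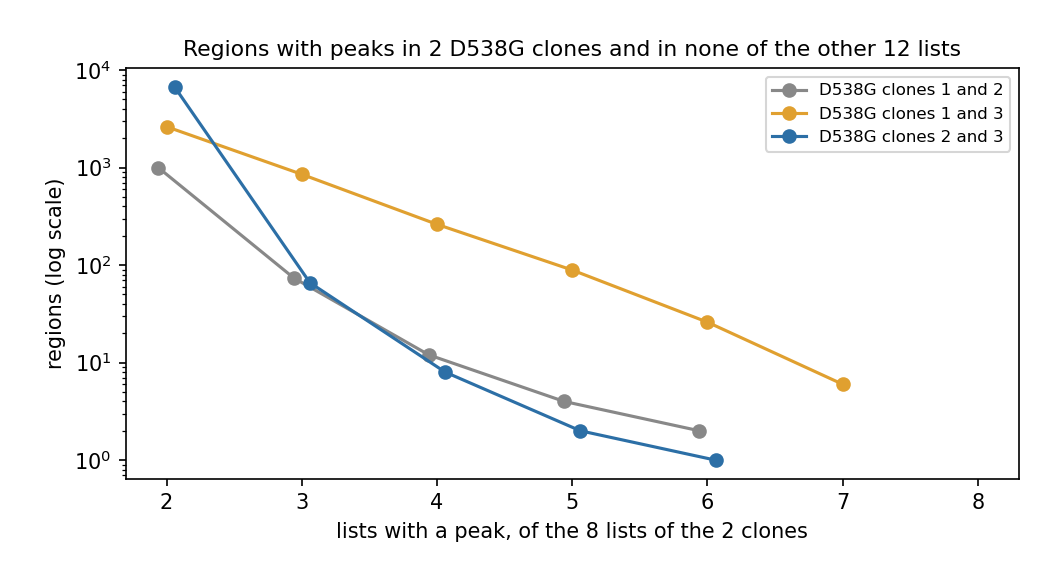
Number of regions (y axis, log scale) with peaks in both clones of a pair of D538G clones and in none of the other 12 lists, by the number of the pair's 8 lists with a peak (x axis). Counts of 0 are not drawn. The point at 6 lists for clones 2 and 3 is 1 region, the main CXCL12 site.

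The site was also set beside the peaks at least as strong in each list. In the clone 3 replicate 1 E2 list 495 peaks were at least as strong as the site's own, and the site's was the only one of them in a region with no wild-type or clone 1 peak. In the clone 3 replicate 1 DMSO list it was the only one of 1000, in the clone 3 replicate 2 E2 list the only one of 811, and in the clone 2 replicate 1 E2 list the only one of 1439. In the clone 2 replicate 2 DMSO list it was 1 of 14 such among 4696, and in the clone 2 replicate 1 DMSO list 1 of 23 among 3422. With only the wild-type lists set aside, the peaks at least as strong that had no wild-type counterpart were more numerous. In clone 3 they were 6 of 495 in the replicate 1 E2 list, 15 of 1000 in replicate 1 DMSO and 4 of 811 in replicate 2 E2. In clone 2 they were 17 of 1439 in the replicate 1 E2 list, 171 of 3422 in replicate 1 DMSO and 73 of 4696 in replicate 2 DMSO. Absence from D538G clone 1 thus removed most of them. Over all peaks of a list, the share with no peak in wild type or clone 1 ran from 0.477% to 42.5%, and it was largest in the longest list. In the clone 2 replicate 1 DMSO list this share was 0.672% among peaks at least as strong as the site's and 0.769% over the list. In the other lists with the site it was 0.0695% to 0.298% among such peaks, each below the share over the list. The site was thus set beside peaks that were mostly shared. The strength cut and the clones set aside were taken from the site itself, whose own peak is in each count. These counts therefore do not measure its rarity. They are descriptions with no test, and the locus had been put forward with results of these data known.

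**Figure D4:**
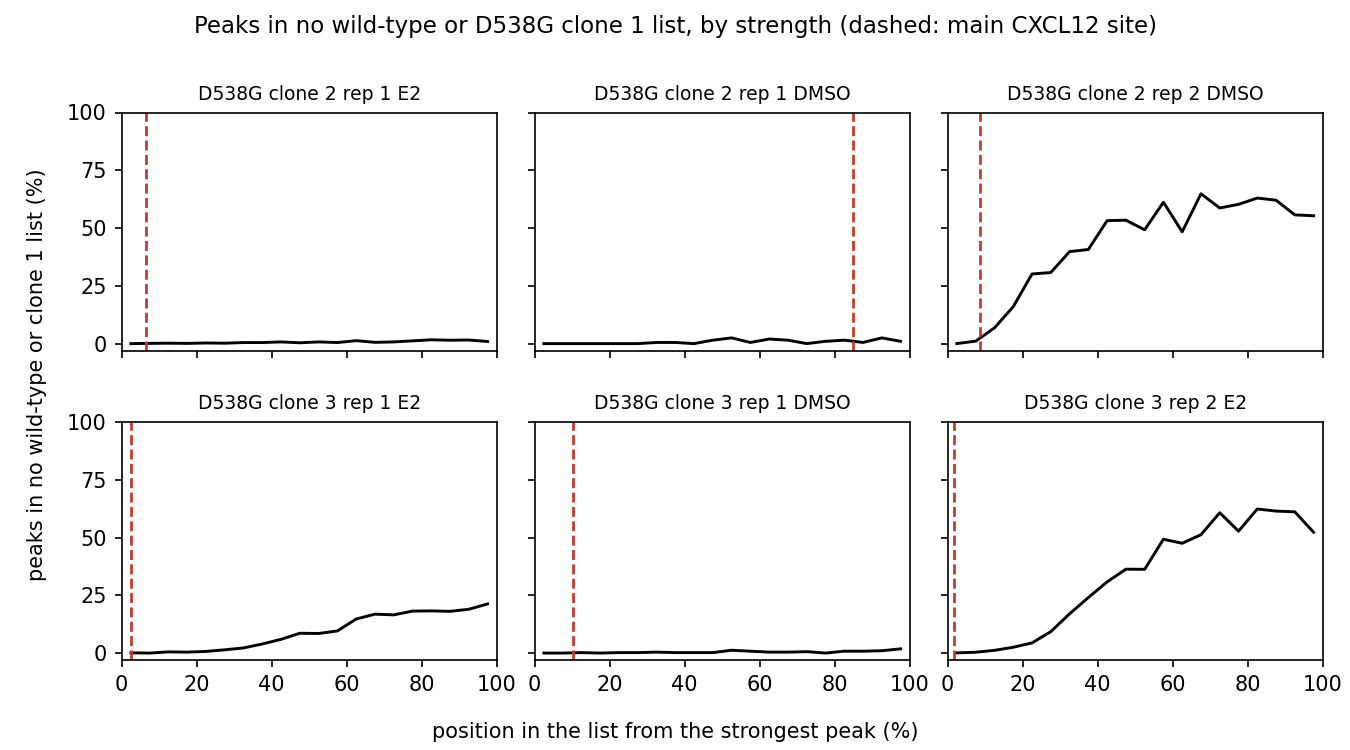
Percent of peaks that lie in regions with no peak in any wild-type or D538G clone 1 list (y axis), in 20 bins from the strongest to the weakest peak of the list (x axis, percent of the list), for the 6 lists with the main CXCL12 site. The dashed line marks the site. The curve is near 0 at the site in all 6 lists. It stays near 0 over the whole list in both clone 2 replicate 1 lists and the clone 3 replicate 1 DMSO list, and rises among weaker peaks in the other 3.

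Seen against other windows, the locus was not densely bound. Of 10419 windows of 200 kb with a peak in any list, 55.8% had at least as many peaks over the 20 lists as the 14 of the CXCL12 window, and the median was 16. Over all 10419 windows, 1668 (16%) had no wild-type peak. The share was lower among windows with as many D538G peaks or more, a cut taken from the CXCL12 window itself. Of 4409 windows with at least 14 D538G peaks, 40 (0.907%) had no wild-type peak, and 8 (0.181%) also had none in D538G clone 1.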

How the data were processed

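FLAG-ESR1 ChIP-seq peak lists of 20 libraries were used, and the 2 input samples were not analysed here. The submitters' processing notes name Bowtie, MACS2 and hg19, with no versions or parameters. Each list was deposited per library, so replicates were not pooled. Per the narrowPeak layout, the authors gave each peak a signal value, whose reference is not stated, a −log10 p and −log10 q, and a score, which was not used. Every deposited −log10 p lay above 10. The authors' peak names hold the word input in the 4 lists of D538G clone 1 replicate 1 and clone 2 replicate 1 only, and the use of input for the others is not given in the sources used here.

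From the lists, 5 mitochondrial peaks were left out and peaks of all lists overlapping by at least 1 bp were merged (the same regions as bedtools 2.31.1). Coordinates are 1-based. A peak's rank is 1 plus the number of peaks in its list with a larger signal value. Peaks in the window per library were compared by exact two-sided permutation tests. Presence was compared by Fisher's exact test for every region of the genome found in 2 or more of the lists being compared, with Benjamini-Hochberg adjustment over all of them and a threshold of 0.05 (Python 3.11.15, SciPy 1.17.1). The test was run on simulated lists of independent libraries with fully separated regions. Their unadjusted p is under 0.05 by arithmetic, so this checks only the code. For the difference in E2 effect, E2 and DMSO libraries were matched by clone and replicate number. They share a clonal line, and the labels do not say that the number marks a shared culture or day. The text names the 6 sites of the window in most libraries and the one nearest the centre, and gives the remaining site for completeness. The locus, window and tests were chosen with earlier results of these data known. The planned description of CXCR4, ACKR3 and other genes of the axis was not run, since it needs an annotation of the lists' build.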

Additional observations from a re-analysis of the deposited data

Results flagged for a closer look

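Of 8 combinations of measure and group searched for a library far from the others, the 4 of wild type were all 0 and could not give one, and 2 of the 4 of D538G did. The rate of about 1 in 20 that chance gives holds for continuous values and not for small, tied counts such as these. The D538G clone 2 replicate 2 DMSO list, the longest of the series, had 4 peaks in the window, and the other 5 D538G DMSO lists had 0 or 1. Per 10000 peaks of the list, the D538G clone 3 replicate 1 E2 list had 2.02 peaks in the window, and the other D538G E2 lists had 0 to 0.609.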

How the results depend on the processing

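No window region passed the adjusted threshold and no difference in peak number was called, in the 9 results or their 179 alternatives. At least 50 of these could not have passed, because wild type was all 0, the smallest possible p was over 0.05 or no window region was tested, so they say nothing about stability. The limits given above for adjusted region tests and for peak number in D538G against wild type apply to the alternatives as well. The smallest unadjusted exact permutation p for peak number was 0.167. Signs changed only for E2 against DMSO in D538G and for the difference in E2 effect, each 0.333 peaks in the main results. For E2 against DMSO in D538G, the difference was −0.19 per 10000 peaks of the list and −0.333 in replicate number 2 alone, and leaving out 1 library gave −0.2 to 0.933, with −0.2 without clone 3 replicate 1 E2. The difference in E2 effect was −0.333 in replicate number 2 alone and −0.2 to 1.2 when 1 pair was left out, with −0.2 without either clone 3 pair. The cause was not tested. Without 1 library at a time, the D538G-minus-wild-type difference was 0.4 to 1.2 in DMSO and 0.8 to 1.6 in E2. The 0.4 was without the clone 2 replicate 2 DMSO list. With the replicate block these differences were 1 (exact p = 0.46) and 1.33 (exact p = 0.34), and in D538G 0.333 (exact p = 1), so the block changed no call. Of 10 E2 and DMSO pairs with the same clone and number, 4 had deviations from the group means that correlated over 0.1 across regions (range −0.436 to 0.51), and 12 of 20 libraries were closer to their own number than to the other number of the clone. Values limited to 1 replicate number or without the clone 2 replicate 1 pair were chosen after the data were seen.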
